A study of Danio rerio with 20 samples.

Results

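The genes described here encode cell surface molecules at contacts between axons and myelinating glia, and a related set of tetraspan membrane glycoproteins. They were read from RNA sequencing counts of zebrafish spinal cord cells sorted for a green reporter driven by the promoter of olig2. Rows of the count table were taken whose zebrafish symbol, case ignored, was one of 10 given names or such a name without its a or b paralog letter. This gave 10 of 32266 genes, 3 by the full symbol and 7 without the paralog letter. Of the 10 names 9 had a row. No row was matched to nfascb, and 1 further row was matched through the symbol GPM6B. The name table writes the 7 genes as NFASC, NRCAM, CNTN1, GPM6A (a pair) and GPM6B (a pair). Their paralog letters were taken from the single RefSeq gene of that root on the same chromosome in assembly GRCz12tu, which is an inference from the chromosome. On that basis the further row is gpm6ba.

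Neurofascin, NrCAM and the contactins belong to the immunoglobulin superfamily. In mammals the glial form of neurofascin at the paranode, the junction that flanks each node of Ranvier, faces a complex of contactin 1 and the contactin-associated protein Caspr, encoded by CNTNAP1, on the axon. The axonal form of neurofascin and NrCAM lie at the node itself, and contactin 2 (TAG-1) lies on both membranes beside the paranode. The proteins encoded by gpm6 genes belong to the proteolipid family and are known from mammalian neurons and oligodendrocyte lineage cells. The counts are per gene, so that glial and axonal forms of neurofascin are added together.

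The lesion group was made of adult Tg(olig2:eGFP) zebrafish at 7 days after transection of the spinal cord, with 10 libraries. The sham group was made of adult fish of the same genotype whose cord was left intact, also with 10 libraries. The protocols state that pieces of about 0.5 mm from 9 cords per group, cut rostral of the lesion or at the matching place in sham fish, were put together before dissociation and sorting of living cells. They do not tie libraries to fish, so that the libraries of a group may be portions of a single pool and the p-values may cover technical spread alone. The sample titles carry a row letter, A or B, that both groups share (6 and 4 libraries in each), and numbers that do not overlap between the groups, so that a difference between those positions and the lesion cannot be told apart. The reporter marks any cell in which the olig2 promoter is or was recently active, and the comparison asks which genes of these cells differ after a lesion.

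Library totals ran from 7371761 to 9196227 counts in the lesion group and from 7134670 to 10264810 in the sham group. Genes with a count numbered 13562 to 16518 in lesion libraries and 10328 to 13117 in sham libraries, so that the groups did not overlap in this measure. OLIG2 ranged from 5022 to 9405 CPM after lesion and from 6340 to 10156 CPM in sham (counts per 1000000 counts of the library, with TMM-adjusted library sizes), and did not pass the test (log2 fold change -0.15 ± 0.11 SE). The labels call the cells oligodendrocyte progenitors. Of 11 progenitor markers 8 were tested and 0 passed. The summed level of the list, OLIG2 included, was 6672 to 11184 CPM after lesion and 8244 to 12091 CPM in sham. SOX10 averaged 672 CPM after lesion and 719 CPM in sham, 1 PTPRZ1 gene 637 and 800 CPM and olig1 152 and 194 CPM. These were found in every library. PDGFRA, which defines such cells, was found with 2 counts in a single lesion library and with 156 counts in a single sham library. Markers of mature oligodendrocytes were abundant, with a summed level of 70127 to 155527 CPM after lesion and 98188 to 170066 CPM in sham.

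Of the 10 genes, 6 passed the filter on low counts and were tested, and the other 4 were too sparse. Among the 6, nfasca and gpm6ab fell after lesion and 0 rose (edgeR quasi-likelihood test, adjusted p under 0.05). In the same test 7.58% of all 10467 tested genes were called, 3.24% lower and 4.34% higher. The median log2 fold change was -0.73 over the 6 genes, with positive values for cntn1a and gpm6bb, and 0.03 over all genes tested. The genes were chosen with earlier results of these data known, so that this median is no test of them as a set. The level in these mixed samples is one of RNA per library, so that fewer cells of a type and less RNA per cell cannot be told apart.

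**Figure D1:**
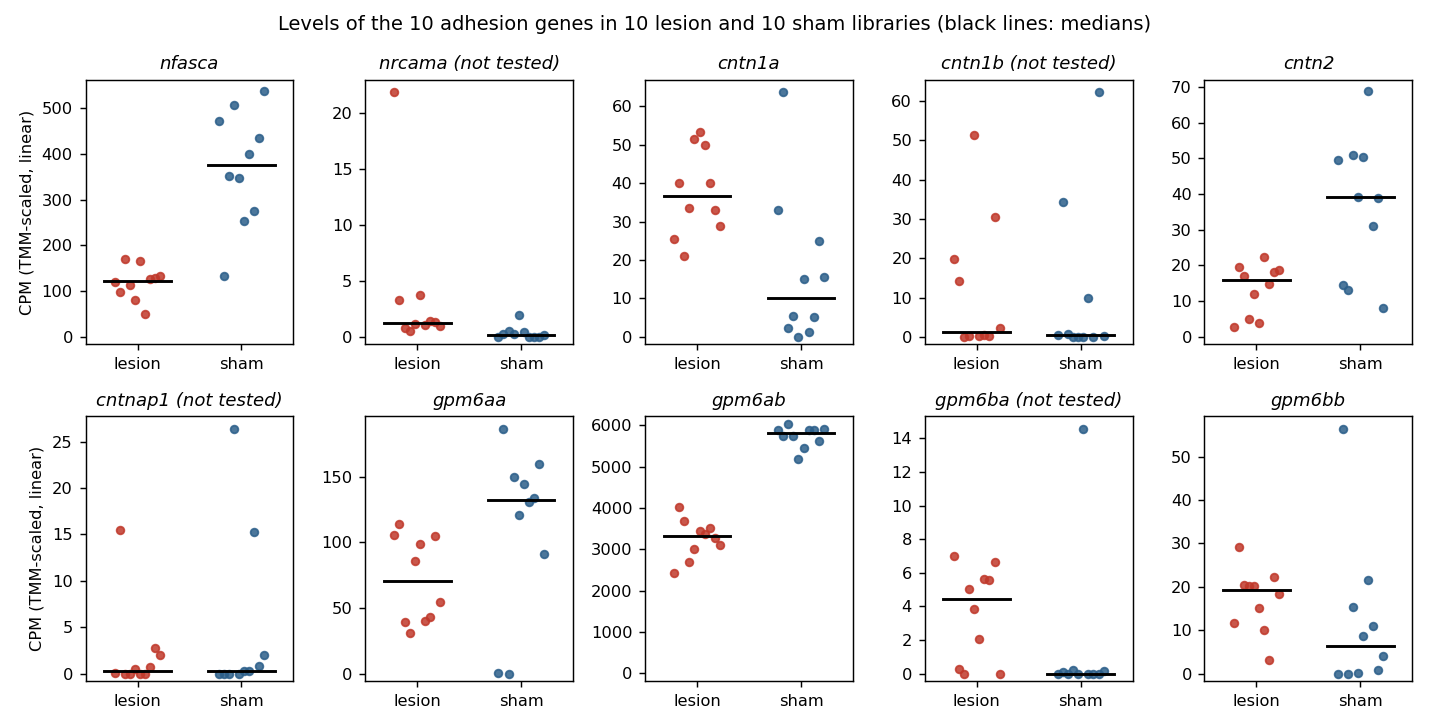
Level of each of the 10 genes in CPM on a linear axis, 1 point per library, with lesion libraries on the left, sham libraries on the right and the group medians as black lines. The groups of gpm6ab do not overlap, and those of nfasca overlap through 1 sham library at 133 CPM.

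The gene nfasca (NFASC, ENSDARG00000061099) encodes neurofascin and lies on chromosome 11 from 23466553 to 23646948 (GRCz10, plus strand). Its level was 50.2 CPM in the lowest lesion library, 123 CPM at the median and 170 CPM in the highest, against 133, 376 and 538 CPM in sham libraries. All 10 lesion libraries were below the sham median, and 9 sham libraries were above the highest lesion library. The exception was sham replicate 2, and the next lowest sham library had 253 CPM. The mean was 119 ± 36.3 CPM after lesion and 371 ± 126 CPM in sham (SD, n = 10 each). The log2 fold change of -1.64 ± 0.23 (SE, edgeR adjusted p = 1.9e-05) placed the lesion level at 32.0% of the sham level. Of all genes tested, 2.37% had a log2 fold change at least as low.

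The fall of nfasca was of like size in both rows that the sample titles name. In row A it averaged 115 ± 21.0 CPM in 6 lesion libraries and 361 ± 95.9 CPM in 6 sham libraries (log2 fold change -1.63, edgeR adjusted p = 0.000257), in a fit that called 1.85% of genes lower. In row B it averaged 125 ± 55.9 CPM in 4 lesion libraries and 386 ± 178 CPM in 4 sham libraries (-1.64, edgeR adjusted p = 0.154), which did not pass the threshold in a fit that called 0.383% of genes lower. With each library's count of detected genes in the model, a measure that separates the groups completely, the log2 fold change was -1.53 and the call was lost (edgeR adjusted p = 0.0895), in a fit that called 0.344% of genes lower. In each of 20 fits that left out 1 library the gene was called lower.

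Of 10 tested markers of mature oligodendrocytes 4 fell, among them mbpa, cldnk and TSPAN2, mbpb rose, and 5 did not pass. The 4 lower calls were lost in row B alone and when detected genes were modelled, and cldnk was called in 5 of the 20 leave-one-out fits. Their summed level had a median of 104251 CPM after lesion and 146429 CPM in sham. Sham replicate 2, the lowest sham library for nfasca, was also the lowest of the sham group in this sum, at 98188 CPM. The highest lesion library for nfasca, replicate 3, was the highest of its group in the sum, at 155527 CPM, but the lowest lesion library for nfasca, replicate 7, had 104151 CPM. The part of these markers in the fall of nfasca was not tested.

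The gene cntn2 (ENSDARG00000000472), which encodes contactin 2, lies on chromosome 11 from 23695159 to 23741757, on the same strand as nfasca and 48.2 kb beyond its end, with 2 genes between them. Its level was 2.89, 16.0 and 22.4 CPM in the lowest, median and highest lesion libraries, against 8.15, 39.0 and 68.7 CPM in sham libraries. All 10 lesion libraries were below the sham median and 7 sham libraries were above the highest lesion library, while the other 3 overlapped the lesion range. The log2 fold change of -1.44 ± 0.51 (SE) did not pass the edgeR threshold (adjusted p = 0.103). It was called lower by the DESeq2 test (-1.51, adjusted p = 0.00981), in which 5.37% of genes were lower. It was not called by limma-voom (adjusted p = 0.0849) or in any of 20 edgeR fits that left out 1 library (adjusted p from 0.0608 to 0.183).

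In mammals the paranodal partners on the axon side are contactin 1, with 2 gene copies here, and Caspr. The counts do not show which of the sorted cells held their RNA. The copy cntn1a (ENSDARG00000087843, chromosome 25, 57456 to 151990) had 21.1, 36.7 and 53.2 CPM in the lowest, median and highest lesion libraries, against 0, 10.2 and 63.7 CPM in sham libraries. All 10 lesion libraries were above the sham median, yet the groups overlapped, with sham replicate 2 above every lesion library. The spread differed in size, with an SD of 29.9% of the mean after lesion and 119% in sham. The log2 fold change was 1.18 ± 0.72 (SE, edgeR adjusted p = 0.51). Without sham replicate 2 it was 1.70 (edgeR adjusted p = 0.201). By limma-voom, in which 13.2% of genes were higher, it was 2.55 and called (adjusted p = 0.026). The annotated exons of cntn1a add up to 1590 bases, and 5 other genes lie within its span with no shared exon bases.

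The copy cntn1b (CNTN1, ENSDARG00000045685, chromosome 4, 13734989 to 13757867) was present in some libraries of each group and near 0 in the rest. It had 0, 11 and 415 counts in the lowest, median and highest lesion libraries, against 0, 3 and 489 counts in sham libraries. More than 10 counts were found in 5 lesion and 3 sham libraries, and 41.4% of all lesion counts and 54.7% of all sham counts came from a single library. In row A it averaged 19.7 ± 19.2 CPM in 6 lesion libraries and 10.5 ± 25.4 CPM in 6 sham libraries (log2 fold change 0.93, edgeR adjusted p = 0.977). In row B it averaged 0.271 ± 0.224 CPM in 4 lesion libraries and 11.2 ± 16.0 CPM in 4 sham libraries, below the filter there. Over all 20 libraries it was too sparse for the test. In a fit without the filter the log2 fold change was 0.17 ± 1.42 (SE, edgeR adjusted p = 0.982).

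The gene cntnap1 (ENSDARG00000074524, chromosome 3, 36762183 to 36802891), which encodes Caspr, had 0, 2.5 and 126 counts in the lowest, median and highest lesion libraries, against 0, 2 and 273 counts in sham libraries. A count was found in 6 libraries of each group, and 1 library held 70.4% of the lesion counts and another 67.6% of the sham counts. The 4 lesion libraries without a count were those of row B. No difference was detectable at this sparsity (log2 fold change -1.01 ± 1.55 SE without the filter, edgeR adjusted p = 0.785).

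The gene nrcama (NRCAM, ENSDARG00000006396) encodes a neurofascin relative of the node and lies on chromosome 4 from 13651637 to 13729526. It ends 5.46 kb before cntn1b on the same strand, with 0 genes between. It had 4, 10.5 and 197 counts in the lowest, median and highest lesion libraries, against 0, 1.5 and 16 counts in sham libraries. All 10 lesion libraries and 6 sham libraries held a count, and all 10 lesion libraries lay above the sham median. Lesion replicate 1 alone held 63.3% of the 311 lesion counts, and sham libraries held 30 counts in all. The gene was below the filter. Without the filter its log2 fold change was 3.27 ± 1.27 (SE, edgeR adjusted p = 0.0856), in a fit in which 11.6% of genes were higher. Lesion libraries held counts of more genes in general, as given above, and the part of that in this value was not tested.

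**Figure D2:**
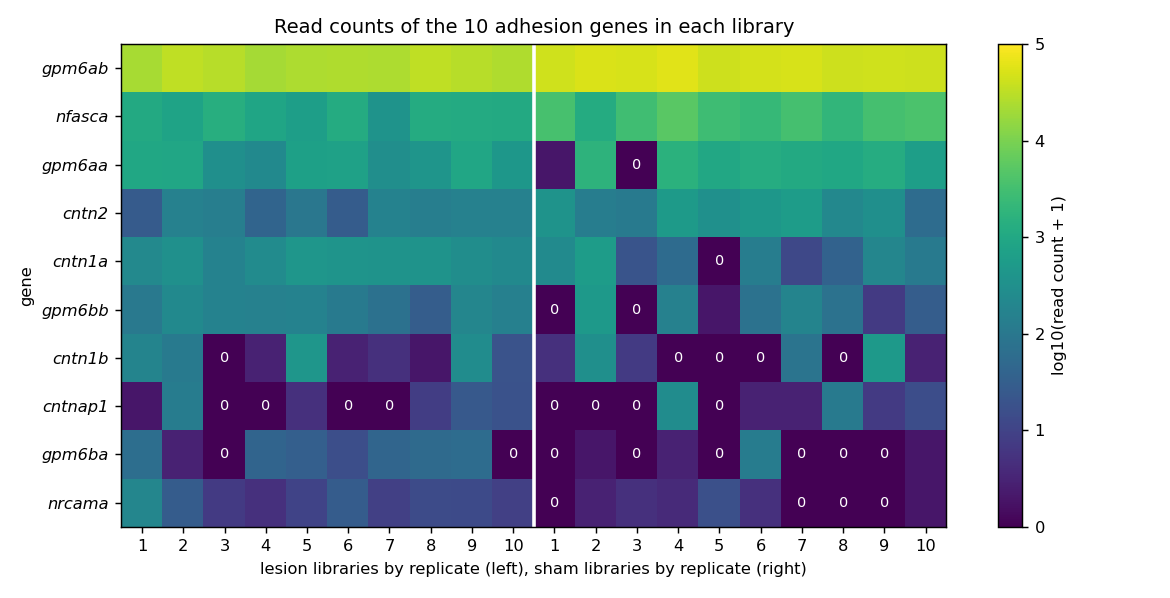
Read counts of each gene (rows, by mean level per length in sham) in each library (columns, lesion left and sham right), as log10 of the count plus 1, with 0 written where no read was counted. The genes gpm6ab, nfasca and cntn2 were found in all 20 libraries, and gpm6aa and gpm6bb were both nearly absent in sham replicates 1 and 3. In sham replicate 5 gpm6bb held 1 count and gpm6aa 980 counts.

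The gene gpm6ab (GPM6A, ENSDARG00000004621, chromosome 1, 37930837 to 38038600, minus strand) encodes a membrane glycoprotein of the proteolipid family. It had by far the highest level of the 10 genes. Its level was 2434, 3331 and 4022 CPM in the lowest, median and highest lesion libraries, against 5182, 5815 and 6038 CPM in sham libraries. Every lesion library was below every sham library. Groups without overlap and lower after lesion were found for 0.554% of the genes tested. The mean was 3259 ± 466 CPM after lesion and 5738 ± 254 CPM in sham (SD, n = 10 each), so that the SD was 14.3% of the mean after lesion and 4.43% in sham. The log2 fold change was -0.82 ± 0.08 (SE, edgeR adjusted p = 1.5e-07), which is a lesion level of 56.8% of the sham level.

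The call of gpm6ab held under every alternative that was run. The highest adjusted p was 0.0196 in row B alone, where it averaged 3305 ± 421 CPM in 4 lesion libraries and 5859 ± 78.3 CPM in 4 sham libraries (edgeR log2 fold change -0.85). In row A it averaged 3229 ± 531 CPM in 6 lesion libraries and 5658 ± 305 CPM in 6 sham libraries (-0.78, edgeR adjusted p = 0.000592). When detected genes were modelled it was -0.77 (edgeR adjusted p = 0.0063). A gene on the opposite strand shares 220 of its 4527 exon bases. Strand was ignored in the counting, and that gene had 14 counts in all libraries.

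Its paralog gpm6aa (GPM6A, ENSDARG00000055455, chromosome 14, 36008235 to 36038180) had 30.6, 70.2 and 114 CPM in the lowest, median and highest lesion libraries, against 0, 132 and 187 CPM in sham libraries. All 10 lesion libraries were below the sham median and 7 sham libraries were above the highest lesion library. Sham replicates 1 and 3 held 1 and 0 counts, while the other 8 sham libraries lay between 91.4 and 187 CPM. The log2 fold change of -0.64 ± 0.68 (SE) did not pass the test (edgeR adjusted p = 0.835), and its sign was positive in limma-voom (0.84, adjusted p = 0.617). In the summed level of neuron markers sham replicate 3 was the lowest of its group at 364 CPM and sham replicate 1 the next at 442 CPM, while the other 8 ran up to 1064 CPM. Sham replicates 3 and 1 also had the fewest detected genes, at 10328 and 10723. They were the highest sham libraries in the summed mature oligodendrocyte markers, at 170066 and 164649 CPM. The part of these markers in the levels of gpm6aa was not tested. With detected genes as a term the log2 fold change of gpm6aa was -3.32 ± 1.33 (SE, edgeR adjusted p = 0.391). The number of detected genes separates the groups completely, so that its part and that of the lesion cannot be told apart.

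The GPM6B pair was low. The gene gpm6bb (ENSDARG00000001676, chromosome 9, 55161688 to 55250696) had 3.11, 19.2 and 29.2 CPM in the lowest, median and highest lesion libraries, against 0, 6.38 and 56.4 CPM in sham libraries. It was found in 10 lesion and 8 sham libraries, and the groups overlapped. The sham libraries without a count were replicates 1 and 3, the same that held at most 1 count of gpm6aa, and sham replicate 2 was the highest library in both genes. In sham replicates 5 and 9, however, gpm6bb held 1 and 6 counts and gpm6aa 980 and 1255 counts. The log2 fold change was 0.53 ± 0.96 (SE, edgeR adjusted p = 0.942), and 1.29 without sham replicate 2. Its sign was negative in row B alone (-0.34) and with detected genes as a term (-1.06).

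The gene gpm6ba (ENSDARG00000005739, chromosome 1, 28157821 to 28241594) had 0, 35 and 63 counts in the lowest, median and highest lesion libraries, against 0, 0 and 127 counts in sham libraries. More than 10 counts were found in 7 lesion libraries and in 1 sham library, replicate 6, which held 96.9% of the sham counts. The gene was below the filter, and without the filter its log2 fold change was 1.22 ± 1.51 (SE, edgeR adjusted p = 0.7). Within the gpm6 genes, gpm6ab made up 94.96 to 98.5% of the summed level per length in lesion libraries and 95.5 to 100% in sham libraries.

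Levels of different genes were compared per exon length, as RPKM (CPM divided by the exon length in kilobases). The gene gpm6ab had 720 ± 103 RPKM after lesion and 1268 ± 56.1 RPKM in sham (SD, n = 10 each). This was rank 116 of 22467 genes with a count in the lesion group and rank 35 of 20594 in the sham group. It was 30.4 times the next gene after lesion, cntn1a, and 35.2 times the next gene in sham, nfasca, without overlap of the ranges. Below gpm6ab, neighbours in the order overlapped in every case.

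The order after gpm6ab differed between the groups. After lesion cntn1a came next with 23.7 ± 7.08 RPKM, then gpm6aa with 13.9 ± 6.44, nfasca with 11.5 ± 3.52, gpm6bb with 7.16 ± 3.08 and cntn2 with 4.83 ± 2.57 RPKM. In sham nfasca came next with 36.0 ± 12.2 RPKM, then gpm6aa with 21.7 ± 12.4, cntn2 with 13.1 ± 7.09, cntn1a with 10.5 ± 12.4 and gpm6bb with 4.95 ± 7.28 RPKM. The genes cntn1b, gpm6ba, cntnap1 and nrcama had means of 2.38 RPKM or less in both groups. Within the contactin 1 pair, cntn1a was above cntn1b in 10 of 10 lesion libraries and in 8 of 10 sham libraries. The place of cntn1a and its ratio to gpm6ab depend on its annotated exon length of 1590 bases. That length was 5018 bases for cntn1b and 10314 for nfasca. In CPM, without division by length, the lesion means were 119 for nfasca, 71.8 for gpm6aa, 37.65 for cntn1a and 11.9 for cntn1b.

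**Figure D3:**
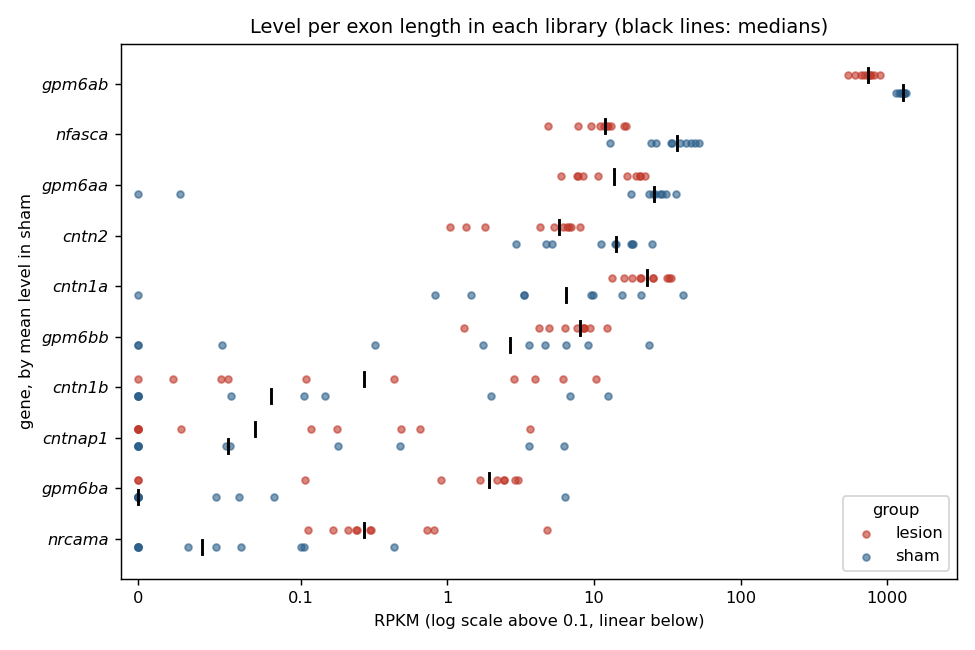
Level of each gene per exon length (RPKM, log axis above 0.1 and linear below) in each library, with lesion points above sham points and medians as black lines. The gene gpm6ab stands apart at 538 RPKM and above, and all other genes stay at 52.1 RPKM or below.

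**Figure D4:**
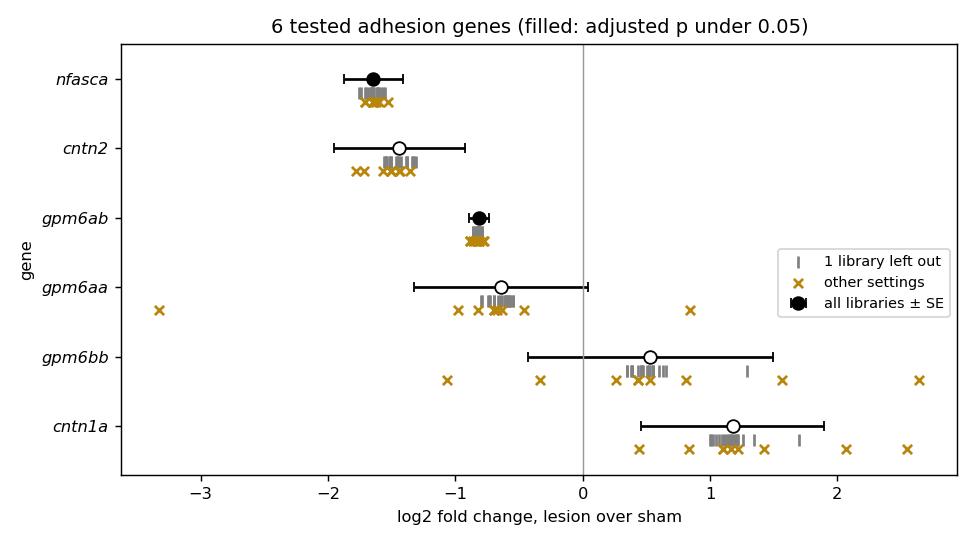
Log2 fold change of the 6 tested genes, lesion over sham, with its SE (circles, filled where called), the 20 fits that left out 1 library (grey bars) and the other settings (crosses). The values of nfasca, cntn2 and gpm6ab were negative in every setting, whereas the signs of gpm6aa and gpm6bb differed between settings.

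Other genes of axon and glia contact were read from 5 lists with 71 symbols, of which 5 had no match beyond the genes above. They matched 68 genes, and 36 of these were tested. Of the 36, CDH2 rose and 4 fell, with a median log2 fold change of -0.0042. The counts of 1 and 4 compare with 4.34% higher and 3.24% lower among all genes tested.

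Among membrane skeleton genes of node and paranode 1 of 8 tested fell and 0 rose. This was EPB41L3 (ENSDARG00000002255), which encodes a band 4.1 protein that in mammals anchors the paranodal complex to the cytoskeleton. It had 199, 307 and 382 CPM in the lowest, median and highest lesion libraries, against 319, 520 and 729 CPM in sham libraries (log2 fold change -0.76 ± 0.16 SE, edgeR adjusted p = 0.0027). The groups overlapped, and in row B alone the gene was not called (adjusted p = 0.72). Its paralog epb41l3b did not pass, at a log2 fold change of 0.99 with adjusted p = 0.667 in edgeR, nor did ank3b, an ankyrin of the node, at -0.66 with adjusted p = 0.372. Another ankyrin gene, ank2b, did not pass in edgeR (1.53, adjusted p = 0.676) or in the DESeq2 test (adjusted p = 0.571). It was called higher by limma-voom (5.305, adjusted p = 0.00103), in which 13.2% of genes were higher.

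Among other adhesion molecules 1 of 17 tested rose and 3 fell. The gene CDH2, which encodes N-cadherin, had 126, 277 and 388 CPM in the lowest, median and highest lesion libraries, against 43.2, 105 and 212 CPM in sham libraries (log2 fold change 1.22 ± 0.24 SE, edgeR adjusted p = 0.0015). One CADM2 gene (ENSDARG00000062633), a synaptic cell adhesion molecule of the immunoglobulin superfamily, had 1.83, 9.16 and 23.4 CPM after lesion, against 12.3, 38.8 and 64.1 CPM in sham (-1.96 ± 0.48 SE, edgeR adjusted p = 0.0091). Another CADM2 gene (ENSDARG00000009930) did not pass and had a positive log2 fold change (0.92 ± 1.35 SE, edgeR adjusted p = 0.914). The junctional adhesion molecule gene jam2a fell, with a log2 fold change of -0.58 and an adjusted p = 0.0408 in edgeR, and kept its call in 8 of the 20 leave-one-out fits. Its call was also lost without lesion replicates 2, 9 and 10 together (adjusted p = 0.0565). The myelin-associated glycoprotein gene mag, which encodes an adhesion molecule of the inner myelin membrane, had a log2 fold change of 0.06 ± 0.14 (SE, edgeR adjusted p = 0.962). In row A alone EPB41L3 was called, and CDH2 (edgeR adjusted p = 0.169), the lower CADM2 gene (0.183) and jam2a (0.0587) were not. In row B alone CDH2 was the single one of these called (edgeR adjusted p = 0.0152). All 5 calls were lost when detected genes were modelled.

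Of 5 tested genes of the L1 family, contactins and contactin-associated proteins, 0 passed the edgeR threshold, and 1 of them had an unadjusted p under 0.05. This was l1cama, the neural adhesion molecule L1, with 4.99, 28.4 and 60.7 CPM in the lowest, median and highest lesion libraries, against 0, 2.27 and 38.8 CPM in sham libraries (log2 fold change 2.42 ± 1.09 SE, edgeR adjusted p = 0.257). By limma-voom, in which 13.2% of genes were higher, l1cama (4.81, adjusted p = 0.00205) and chl1b (5.23, adjusted p = 0.0147) were called higher. The DESeq2 test called neither (adjusted p = 0.126 and 0.245). Of 4 tested nodal and juxtaparanodal channel genes 0 passed the edgeR threshold.

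**Figure D5:**
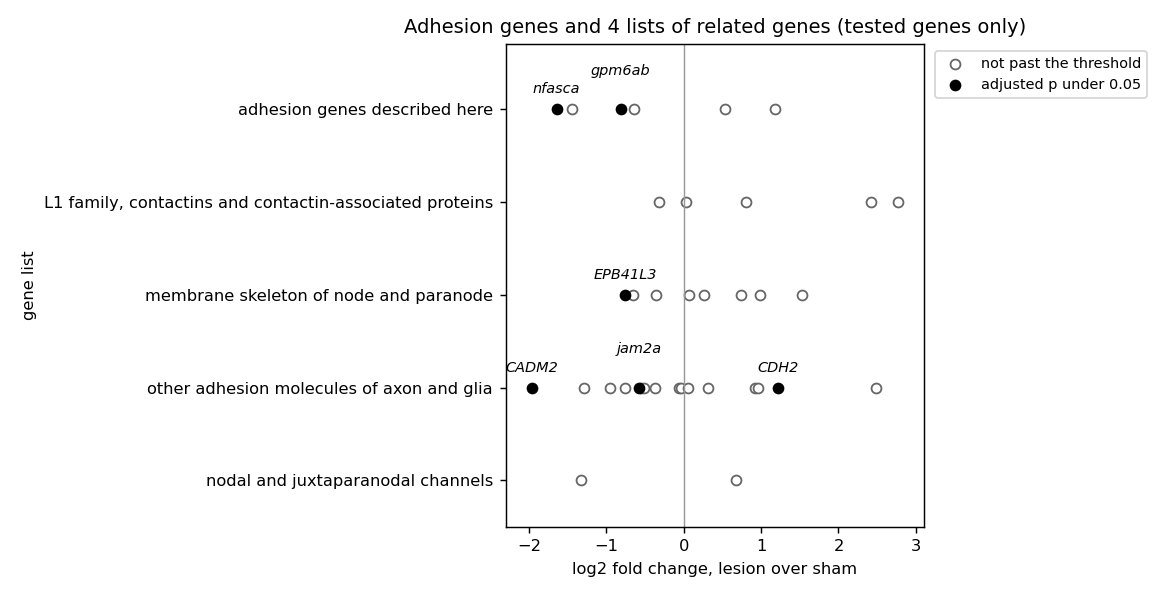
Log2 fold change, lesion over sham, of the 6 tested adhesion genes and of tested related genes in 4 lists (some listed genes are not drawn), with filled points for an adjusted p under 0.05. The lower calls drawn are nfasca, gpm6ab, EPB41L3, CADM2 and jam2a, and CDH2 is the single higher call.

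Several of the 10 genes are also known from neurons, and markers of other cell types were read beside them. Of 10 tested neuron markers 0 passed the edgeR threshold, and their summed level ran from 459 to 1216 CPM (median 729) after lesion and from 364 to 1064 CPM (median 738) in sham. The neuron markers with the highest means were ELAVL3 (225 CPM after lesion and 281 CPM in sham), 1 of the SNAP25 genes (198 and 149 CPM) and ELAVL4 (103 and 131 CPM). The matched genes syt1b and gap43 and 1 of the GAD1 genes were at 0 in all libraries. Of 8 tested ependymoradial glia markers 3 rose (GFAP, FOXJ1 and S100B) and 3 fell (SLC1A3 and both GLUL genes). When detected genes were modelled, SLC1A3 kept its call and the other 5 lost theirs. GFAP (edgeR adjusted p = 0.0296) was also not called in row A alone (0.196), in row B alone (0.403), by limma-voom (0.406) or without lesion replicates 2, 9 and 10 together (0.0706). It lost its call as well without lesion replicate 1 (0.0813) and without lesion replicate 10, and kept it in the other 18 leave-one-out fits. In row B alone S100B (0.176) and both GLUL genes (0.0527 and 0.372) were not called either. The microglia list had 1 tested gene, the endothelial and mural list 2 and the red blood cell list 0, and 0 of these genes passed. Of 5 tested Schwann cell markers 1 fell and 0 rose, and EGR2, which defines myelinating Schwann cells, was below the filter. The part of other cell types in the levels of the adhesion genes was not tested.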

How the data were processed

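RNA of sorted reporter-positive cells was measured in 20 libraries. The values are raw counts for each gene in a single table, as deposited. The submitters' processing notes name bcl2fastq 2.19.1, GSNAP and GRCz10. Counting was done by featureCounts 1.6.2 on Ensembl release 87 annotation, with a minimum mapping quality of 1 and a strand setting of 0, per the file headers, so that overlapping genes on opposite strands cannot be told apart and reads of near-identical copies may be divided or lost. The deposited table also gives exon lengths, used here for RPKM. It has 32358 rows. Of these 92 are spike-ins with 2 counts in all, which were left out. Columns were matched to samples by title, and replicates were numbered in accession order. Group came from the treatment label.

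Lesion and sham were compared by the quasi-likelihood F test (two-sided) of edgeR 4.0.16, run in R 4.3.3 after its filterByExpr and TMM steps and with no covariate, with Benjamini-Hochberg adjustment over 10467 genes and a threshold of 0.05. SE was derived from the fold change and F (|log2 fold change| / √F). The procedure was tested on simulated data. Alternatives were DESeq2 1.42.0 size factors and test, limma 3.58.1 voom, no filter, other terms and subsets of libraries. Symbols came from a table of Ensembl names covering 26433 genes, then RefSeq synonyms, then the symbol without its paralog letter. The members, the 5 related lists and the 8 marker lists were chosen with earlier results of these data known. Named genes were all members, listed genes past the threshold and, per list, up to 3 with the smallest p (markers: up to 4 with the highest level). A few listed genes are counted in their lists but not reported here by name. At these depths 3 counts are at most 0.429 CPM in any library. Intervals are not given for single counts, and SDs cover the spread between libraries. Whether molecular identifiers were used is not given in the sources used here.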

Additional observations from a re-analysis of the deposited data

Results flagged for a closer look

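Each of the 10 genes was screened in each group for a library far from the other 9, which chance gives in about 1 of 20 groups of normally distributed values. Levels of sparse genes are skewed, so that this share need not hold for them. Of 20 groups 6 held such a library, most of them for sparse genes. Sham replicate 2 was far above the rest of its group in cntn1a, at 63.7 CPM with the next library at 33.0 CPM, and in gpm6bb, at 56.4 CPM with the next at 21.5 CPM. The same library was the lowest of its group in nfasca and in the summed mature oligodendrocyte markers. Lesion replicate 2 stood apart in cntnap1, at 15.5 CPM with the next lesion library at 2.74 CPM. Sham replicate 6 stood apart in gpm6ba, at 14.6 CPM with the next at 0.193 CPM. Lesion replicate 1 stood apart in nrcama, at 21.9 CPM with the next at 3.74 CPM, and sham replicate 5 in the same gene, at 1.98 CPM with the next at 0.487 CPM.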

How the results depend on the processing

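With 1 library left out (20 fits), 2 of the 10 genes were called lower and 0 higher each time, and the calls over all genes ran from 395 to 511 higher and from 295 to 382 lower, against 454 and 339 with all libraries. Related genes called ran from 1 to 2 higher and from 3 to 5 lower. Their 2 higher calls came without sham replicate 2.

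Of the 10 genes, 1 was called higher by limma-voom (cntn1a), and 1 instead of 2 was called lower with detected genes as a term and in row B alone, where nfasca was lost. Over all genes, limma-voom called 1380 higher, no filter 2780 higher and 758 lower, the DESeq2 test 562 lower, detected genes as a term 140 higher and 36 lower, row A alone 201 lower, and row B alone 207 higher and 40 lower. Of related genes, limma-voom called 5 higher, no filter 2 higher, detected genes as a term 0 higher and 0 lower, row A alone 0 higher and 2 lower, and row B alone 0 lower. The sign of gpm6aa changed in limma-voom (0.84), and that of gpm6bb with detected genes as a term (-1.06) and in row B alone (-0.34). The cause of these changes was not tested. The fits of row A and row B alone held fewer libraries, and the other settings named here used all 20.

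No paired analysis was possible because the labels give no pairing of lesion with sham libraries. The title row as a term changed no call among the 10 genes. Sparsity limits cntn1b, cntnap1, gpm6ba and nrcama, which were below the filter over all 20 libraries. Without lesion replicates 2, 9 and 10 together the same number of the 10 genes was called, 2 lower and 0 higher.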

Other observations

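Some related genes below the filter were found in more libraries of one group. These were picked after their values were seen and have no test. The L1 family gene l1camb held counts in 9 lesion libraries and 1 sham library, with medians of 2.34 and 0 CPM. The teneurin gene TENM4, whose mouse counterpart acts in oligodendrocyte differentiation and small-axon myelination, held counts in 8 lesion and 2 sham libraries, with 495 counts after lesion and 185 in sham. Nearly all of its sham counts came from 1 library at 23.3 CPM, close to the highest lesion library at 26.7 CPM. Other sparse related genes went the other way. A KCNA1 gene (ENSDARG00000062942) held counts in 1 lesion and 4 sham libraries, with 108 and 479 counts. An OMG gene (ENSDARG00000086573) held counts in 2 lesion and 4 sham libraries, with 77 and 271 counts. More genes were detected in lesion libraries in general (13562 to 16518, against 10328 to 13117 in sham), and the part of that in these counts was not tested.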
